A study of Homo sapiens with 9 samples.

Results

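The genes described are 9 feedback inhibitors of mitogen-activated protein kinase (MAPK) signalling, 5 dual-specificity phosphatases (DUSP1, DUSP4, DUSP5, DUSP6 and DUSP10), 2 Sproutys (SPRY2 and SPRY4) and 2 SPREDs (SPRED1 and SPRED2), among 32449 genes in the deposited tables. They were chosen by symbol, after earlier results of these data were known, and all 9 were found. HCT-116 cells, a widely used line from a human colon carcinoma, were the source of all libraries. They were grown in RPMI medium with fetal bovine serum. Cells of the ORF group stably expressed a peptide-coding reading frame from LINC00266-1, a gene annotated as a long intergenic RNA. The label MT stands for cells with the construct 5'UTR-ORFmut, whose start codon no longer allows the peptide to be made. The NC group carried a blank vector. Each group had 3 libraries. No source used here says whether these were separate cultures or how many clones they represent, so the spread between them may be technical, and fewer expressing cells cannot be told apart from less RNA per cell.

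Library depths lay between 19.5 and 24.4 M reads. LINC00266-1 held 9951, 10229 and 10310 reads in the ORF libraries, 1, 0 and 0 reads in the libraries labelled MT and 1, 0 and 0 reads in NC, so the libraries labelled MT did not show the RNA their label names. PKM, the pyruvate kinase of glycolysis, held 4.51% of reads in ORF, 0.297% in the libraries labelled MT and 0.271% in NC, and any difference of ORF cannot be told apart from that of PKM. All 10 epithelial markers were listed, with summed normalized values of 111000 to 172000 in ORF libraries, 109000 to 172000 in those labelled MT and 99400 to 121000 in NC, although the brush-border gene VIL1 was near 0 (7, 8 and 11 reads over the same groups). Of 10 blood cell markers 6 were listed, and they summed to 30 to 39 reads per ORF library, 21 to 23 per library labelled MT and 16 to 21 per NC library. The monocyte gene CD14 rose, with 77 reads over ORF, 17 over libraries labelled MT and 16 over NC (log2 difference for ORF against NC 2.28 ± 0.36, limma adjusted p = 0.0209), while PTPRC, CD3D, CD3E and MS4A1, which define leukocytes, T cells and B cells, were not listed. The 7 listed of 8 fibroblast markers summed to 407 to 441 reads in ORF, 625 to 661 in libraries labelled MT and 472 to 615 in NC. COL1A1 made up most of these sums, with 1230, 1873 and 1562 reads over the 3 groups, while DCN and LUM were at 0 in ORF. The 5 listed of 6 hepatocyte markers summed to 136 to 199 reads in ORF, 219 to 308 in libraries labelled MT and 190 to 251 in NC. The part of these markers in the results was not tested.

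As background, growth factor receptors and RAS activate the kinases RAF, MEK and ERK in turn, while stress signals reach the related kinases JNK and p38. The DUSP phosphatases described here, also called MAP kinase phosphatases, switch these kinases off by removing phosphate from the tyrosine and threonine of their activation loop. Sproutys and SPREDs act upstream, on the path from receptors through RAS to RAF. ERK signalling induces transcription of many of these inhibitors, which closes a negative feedback loop, and in colon cancer cells their RNA is widely read as a trace of ERK pathway activity. DUSP1, DUSP4 and DUSP5 are nuclear and inducible, DUSP6 is cytoplasmic and selective for ERK, and DUSP10 prefers JNK and p38.

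Short windows of promoters are given for inhibitors with a match to an element of the CREB, ATF or AP-1 families. Such elements can carry MAPK and cyclic AMP signals to a gene. Whether those shown do so for these inhibitors was not tested. RefSeq promoters (GRCh38.p14), 250 bases before to 50 bases after a transcript start, matched 7 of the 9 genes, with 11 promoters in all. Motifs were searched on both strands. Each window is written along the gene's strand with the matched element in capitals and 8 bases on each side.
DUSP1 cyclic AMP response element (chr5:172771305-172771328, minus strand): agggcgggTGACGTCAccgccccg
DUSP1 half-site farther from the start (chr5:172771355-172771375, minus strand): gaggctgaTGACGtctccccc
DUSP1 half-site nearer to the start (chr5:172771294-172771314, minus strand): caccgcccCGTCAcgtgatca
SPRY4 half-site (chr5:142324303-142324323, minus strand): cggagccgTGACGgactgaat
SPRY2 half-site (chr13:80341304-80341324, minus strand): gatccacaTGACGccatttac
DUSP10 half-site in a downstream promoter (chr1:221736892-221736912, minus strand): cgaggcctCGTCAttttcgag
SPRED2 half-site in the upstream promoter (chr2:65432557-65432577, minus strand): tgggaagaCGTCAtcgcttcc
SPRED2 AP-1 element in a downstream promoter (chr2:65366770-65366792, minus strand): ccctcggaTGACTCAtccggtac

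The full cyclic AMP response element, TGACGTCA, was found in 1 of the 11 promoters, that of DUSP1, where it began 125 bases before the start. It is present in 1.85% of 35116 RefSeq promoters of the same length. Its half-site TGACG, which the full element contains on both strands, was found in 5 of the 11 promoters and in 24.6% of all. The AP-1 element TGANTCA was found in 1 of the 11, the downstream SPRED2 promoter, and in 7.71% of all. Neither the ETS element CCGGAAG nor the CArG box of serum response factor was found in any of the 11, against 10.3% and 1.29% of all promoters. The GC box GGGCGG was found in 8 of the 11 and in 45.0% of all, and the E-box CACGTG in that of DUSP1 alone and in 7.26% of all. The E-box in DUSP1 overlaps the nearer half-site shown above. A match of letters describes the window and is no evidence that a factor binds there.

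Levels were compared between genes as normalized reads per kb of exon, where normalized reads are recovered reads divided by 1 set of size factors over all 9 libraries. DUSP5 was the highest of the 9 inhibitors in each group, at 1260 ± 154 in ORF, 1100 ± 152 in libraries labelled MT and 950 ± 35.4 in NC (mean ± SD per kb, n = 3). DUSP4 came next at 705 ± 28.1 in ORF, 903 ± 68.1 in libraries labelled MT and 809 ± 26.3 in NC. SPRY4 and SPRED2 followed in that order in every group. DUSP1 came before DUSP6 in ORF, at 220 ± 35.5 against 174 ± 8.97, and after it in both other groups, at 147 ± 10 against 266 ± 11.5 in libraries labelled MT and 140 ± 12 against 253 ± 6.8 in NC. SPRED1, SPRY2 and DUSP10 closed the order in all groups, with DUSP10 at 15.6 ± 6.77 in ORF, 20.7 ± 2.48 in libraries labelled MT and 15.1 ± 3.32 in NC. Between neighbours in this order the library ranges overlapped only for DUSP1 and SPRED1 in NC, at 126 to 150 and 112 to 136.

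**Figure D1:**
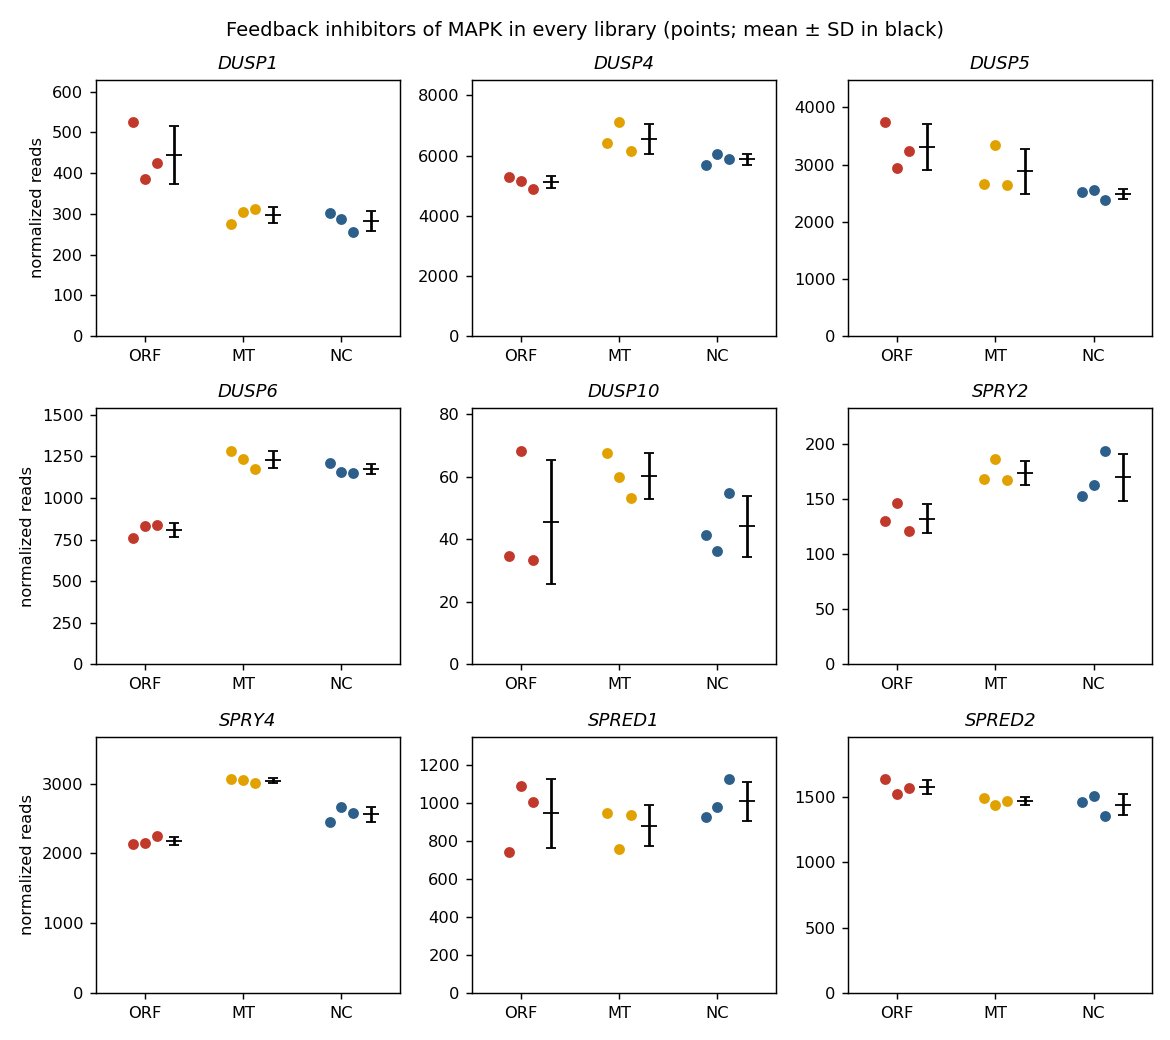
Normalized reads (vertical axes, each from 0) of the 9 inhibitors in the 3 ORF libraries, the 3 labelled MT and the 3 NC libraries, as points, with the mean ± SD of each group in black. DUSP1 points in ORF lie at 385.7 to 524.6, above all others, and DUSP6 points in ORF lie at 759.9 to 834.6, below all others.

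Because the inhibitors were proposed with their values in these comparisons known, their differences are given as values with errors and no p-value, and counts of calls from the fits over all genes follow as a description. Fold changes are log2 differences of normalized value plus 1 from limma, each ± its SE with 3 libraries per group. ORF and the libraries labelled MT were each set against the same NC libraries, so those 2 comparisons share their controls.

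DUSP1 (ENSG00000120129, chromosome 5, 172768090 to 172771195, GRCh38), the early-response phosphatase of ERK, JNK and p38, had 524.6, 385.7 and 424.2 normalized reads in ORF, 274.6, 304.7 and 313.1 in libraries labelled MT and 302.1, 288.3 and 255.1 in NC. Every ORF library was above every other library, and the libraries labelled MT overlapped NC. Against NC, the ORF log2 difference was 0.64 ± 0.16, a 1.56-fold value, and the MT difference 0.08 ± 0.13, while ORF against MT gave 0.57 ± 0.17. The ORF library with the highest DUSP1 was also the one whose values, across 15942 genes, deviated most with GC content (r = 0.645). After adjustment for GC content and length the difference from NC was 0.51 ± 0.10 in ORF and changed sign in MT, to -0.06 ± 0.10. In its annotated transcript the 3' UTR of 672 bases holds 4 copies of the AU-rich pentamer ATTTA, a density of 5.95 per kb, which exceeds that of 93.6% of 16178 genes. The other inhibitors ranged from 0 in DUSP5 to 4.3 per kb in SPRED1, which exceeds that of 86.7% of genes.

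DUSP4 (ENSG00000120875, chromosome 8, 29333064 to 29350668), a nuclear phosphatase of ERK and JNK, had 5296, 5152 and 4893 normalized reads in ORF, 6422, 7103 and 6142 in libraries labelled MT and 5679, 6061 and 5881 in NC. The 3 groups did not overlap: ORF was lowest, NC lay between and the libraries labelled MT were highest. On the log2 scale ORF differed from NC by -0.20 ± 0.12, MT from NC by 0.16 ± 0.11 and ORF from MT by -0.36 ± 0.13. With quantile normalization the first of these was -0.36 and the second 0.07.

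DUSP5 (ENSG00000138166, chromosome 10, 110497838 to 110511544), the nuclear phosphatase specific for ERK, had 3736, 2940 and 3229 normalized reads in ORF, 2652, 3340 and 2647 in libraries labelled MT and 2516, 2554 and 2378 in NC. ORF and the libraries labelled MT were both above all NC libraries and overlapped each other through the second library labelled MT. This gave log2 differences of 0.40 ± 0.13 for ORF against NC, 0.21 ± 0.12 for MT against NC and 0.20 ± 0.16 for ORF against MT. That second library was the one labelled MT whose values were highest for GC-rich genes (r = 0.587 across genes), and with the adjustment for GC content and length the MT against NC difference was 0.06 ± 0.07, while the ORF against NC difference was 0.27 ± 0.07. No ATTTA lies in the 1118 bases of the annotated DUSP5 3' UTR.

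DUSP6 (ENSG00000139318, chromosome 12, 89347232 to 89353271), the cytoplasmic ERK phosphatase, had 759.9, 828.8 and 834.6 normalized reads in ORF, 1282, 1233 and 1176 in libraries labelled MT and 1208, 1157 and 1151 in NC. The ORF libraries stood below all 6 others, which overlapped each other. ORF differed from NC by -0.54 ± 0.12 on the log2 scale, a 1.45-fold lower value, MT differed from NC by 0.07 ± 0.10 and ORF from MT by -0.61 ± 0.13. Leaving out any 1 library kept the ORF against NC difference between -0.57 and -0.49, and the GC adjustment gave -0.52 ± 0.08.

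DUSP10 (ENSG00000143507, chromosome 1, 221701424 to 221742176), which acts on JNK and p38, was the lowest of the 9, with 123 reads over the ORF libraries, 191 over those labelled MT and 142 over NC. Its normalized reads were 34.75, 68.26 and 33.43 in ORF, 67.66, 59.98 and 53.2 in libraries labelled MT and 41.29, 36.15 and 54.86 in NC. All 3 groups overlapped, and the second ORF library held about as much as the libraries labelled MT. Log2 differences were -0.02 ± 0.32 for ORF against NC, 0.46 ± 0.23 for MT against NC and -0.47 ± 0.31 for ORF against MT. Without the second ORF library the first of these was -0.35, so no direction can be given at this depth.

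SPRY2 (ENSG00000136158, chromosome 13, 80335976 to 80340951), a Sprouty that restrains receptor signalling to RAS, had 130, 146.3 and 121 normalized reads in ORF, 168.1, 186.7 and 167.4 in libraries labelled MT and 153.1, 163.1 and 193.9 in NC. The ORF libraries were below all others, though the highest of them came close to the lowest NC library. Set against NC, ORF differed by -0.36 ± 0.18 and MT by 0.04 ± 0.15 in log2 terms, and ORF differed from MT by -0.39 ± 0.18.

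SPRY4 (ENSG00000187678, chromosome 5, 142310427 to 142326455), a Sprouty that restrains RAS and RAF activation, had 2140, 2146 and 2251 normalized reads in ORF, 3063, 3061 and 3004 in libraries labelled MT and 2453, 2660 and 2574 in NC. As with DUSP4, the groups did not overlap and NC lay between ORF below and the libraries labelled MT above. The differences in log2 units were -0.24 ± 0.11 for ORF against NC, 0.25 ± 0.10 for MT against NC and -0.48 ± 0.13 for ORF against MT. The first was -0.35 with quantile normalization.

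SPRED1 (ENSG00000166068, chromosome 15, 38252326 to 38357249), which brings the RAS inactivator neurofibromin to the membrane, had 743.1, 1091 and 1006 normalized reads in ORF, 947.2, 755.5 and 934.9 in libraries labelled MT and 925.4, 978.7 and 1124 in NC. All groups overlapped. In log2 terms ORF differed from NC by -0.11 ± 0.16, MT from NC by -0.20 ± 0.12 and ORF from MT by 0.10 ± 0.18. SPRED1 has the lowest GC content of the 9 transcripts, 38.9%. Within ORF and within MT it was lowest in the library with the highest values for GC-rich genes, but within NC it was not. With the GC adjustment the differences from NC were 0.15 ± 0.09 for ORF and -0.01 ± 0.07 for MT, and without the first ORF library the ORF difference was 0.06.

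SPRED2 (ENSG00000198369, chromosome 2, 65310851 to 65432637), the second SPRED, had 1635, 1526 and 1568 normalized reads in ORF, 1495, 1435 and 1472 in libraries labelled MT and 1461, 1510 and 1355 in NC. The ORF libraries were above all others by a small margin. The 3 log2 differences were small, at 0.13 ± 0.12 for ORF against NC, 0.03 ± 0.10 for MT against NC and 0.10 ± 0.13 for ORF against MT. Quantile normalization gave 0.04 for ORF against NC.

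**Figure D2:**
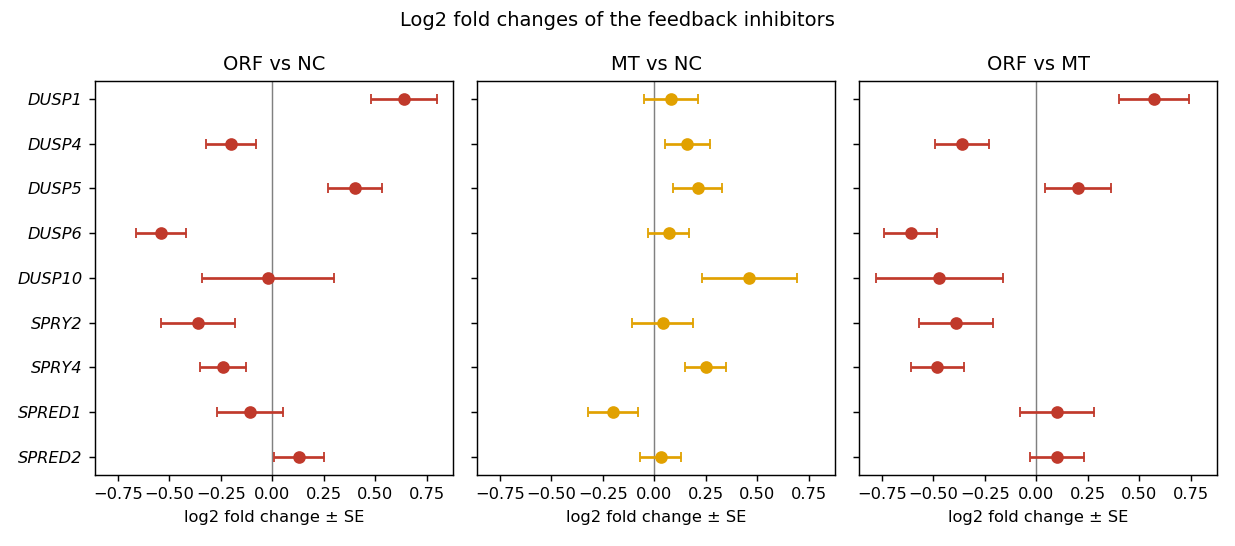
Log2 fold changes (horizontal axis, points) ± SE (bars) of the 9 inhibitors for ORF against NC, MT against NC and ORF against MT, 3 libraries per group. DUSP1 lies at 0.64 and DUSP6 at -0.54 in the first panel, while in the second the values for DUSP1 and DUSP6 are 0.08 and 0.07.

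Read together for ORF against NC, 3 inhibitors (DUSP1, DUSP5 and SPRED2) had every ORF library above every NC library, 4 (DUSP4, DUSP6, SPRY2 and SPRY4) had every ORF library below, and 2 overlapped. Over all 24662 genes tested the shares are 11.5% above and 10.1% below. By limma none of the 9 had an adjusted p below 0.05, where 0.418% of all genes did, and edgeR called 0 of the 9 and 0.618% of genes. DESeq2 called 2 (DUSP1 and DUSP6) and 1.8% of 30973 genes. Shares for DESeq2 are over all genes listed, without the filters on level used for limma and edgeR, so they are not on the same base. Limma with GC content and length adjusted called 3 (DUSP1, DUSP5 and DUSP6) and 8.51% of genes. At an unadjusted limma p below 0.05 there were 3 of the 9 and 15.7% of genes. For MT against NC, 3 inhibitors (DUSP4, DUSP5 and SPRY4) had every library labelled MT above NC and 0 had every one below, against 5.7% and 6.72% of all 25310 genes tested. None of the 9 was called by limma there, where 0% of genes were, and 1 had an unadjusted p below 0.05, as did 4.67% of genes. There edgeR, DESeq2 and the GC-adjusted fit also called 0 of the 9, and 0%, 0.00322% (of all 31088 listed) and 0% of genes. For ORF against MT, 2 (DUSP1 and SPRED2) lay wholly above and 4 (DUSP4, DUSP6, SPRY2 and SPRY4) wholly below, against 10.2% and 9.58% of 24506 genes. Limma called none of the 9, against 0.294% of genes, and edgeR called 0 of the 9 and 0.494% of genes. DESeq2 called 2 (DUSP6 and SPRY4) and 1.32% of all 32449 genes listed. Limma with GC content and length adjusted called 4 (DUSP1, DUSP4, DUSP6 and SPRY4) and 7.75% of genes. At an unadjusted limma p below 0.05 there were 4 of the 9 and 13.4% of genes. Over the 9 the median log2 difference was -0.11 for ORF and 0.08 for MT, each against NC, and -0.36 for ORF against MT, beside -0.04, 0.01 and -0.03 over all genes tested. Since the choice of genes used these comparisons, nothing is read from these counts.

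Ratios between 2 inhibitors within a library need no scaling between libraries, but a library's trend with GC content need not cancel in them. DUSP1 and DUSP5 have 55.1% and 55.9% GC, against 46.7% in DUSP6. The first ORF library, with the strongest such trend (r = 0.645), had the highest ratios of DUSP1 and of DUSP5 to DUSP6. The part of GC content in the ratios was not tested. The ratio of DUSP1 to DUSP6, in reads per kb, was 1.58, 1.07 and 1.17 in ORF, 0.491, 0.567 and 0.611 in libraries labelled MT and 0.574, 0.572 and 0.508 in NC. DUSP1 thus exceeded DUSP6 in all 3 ORF libraries and in none of the others. The ratio of DUSP5 to DUSP6, the nuclear to the cytoplasmic ERK phosphatase, averaged 7.28 ± 1.27 in ORF, 4.15 ± 0.584 in libraries labelled MT and 3.75 ± 0.138 in NC (SD, n = 3). The ratio of DUSP5 to DUSP4 averaged 1.79 ± 0.19 in ORF, 1.22 ± 0.0812 in libraries labelled MT and 1.17 ± 0.0538 in NC. The ratio of SPRED2 to SPRY4 averaged 0.922 ± 0.0456 in ORF, 0.614 ± 0.0151 in libraries labelled MT and 0.718 ± 0.0443 in NC. For these 4 ratios every ORF library lay above every other library. The pairs were chosen after the values were seen. Each sets an inhibitor whose ORF libraries all lay above NC over 1 whose ORF libraries all lay below. The separation from NC was therefore fixed in advance, and the ratios add no evidence to the single values.

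The 5 phosphatases were also set among the 10 MAP kinase phosphatases, with DUSP2, DUSP7, DUSP8, DUSP9 and DUSP16 added. DUSP4 and DUSP5 held the largest shares of their summed reads per kb. DUSP5 held 37.9% ± 0.675 in ORF, 33.8% ± 1.15 in libraries labelled MT and 32.3% ± 0.462 in NC, and DUSP4 held 21.3% ± 1.97 in ORF, 27.8% ± 0.894 in libraries labelled MT and 27.6% ± 1.29 in NC (SD, n = 3). The share of DUSP1 was 6.6% ± 0.337 in ORF, 4.56% ± 0.513 in libraries labelled MT and 4.75% ± 0.288 in NC, and that of DUSP6 was 5.3% ± 0.796, 8.22% ± 0.838 and 8.63% ± 0.429 in the same groups. The cytoplasmic ERK-selective class (DUSP6, DUSP7 and DUSP9) made up 17.4% ± 0.361 in ORF, 20.9% ± 0.436 in libraries labelled MT and 22.0% ± 0.874 in NC. The nuclear inducible class (DUSP1, DUSP2, DUSP4 and DUSP5) made up 74.7% ± 0.252 in ORF, 72.8% ± 0.902 in libraries labelled MT and 71.6% ± 0.656 in NC. The JNK and p38-selective class (DUSP8, DUSP10 and DUSP16) made up 7.85% ± 0.588 in ORF, 6.26% ± 0.632 in libraries labelled MT and 6.44% ± 0.293 in NC. The genes of a class did not all go the same way. DUSP8 held 4.21% ± 0.215 in ORF and 2.47% ± 0.169 in NC. DUSP10 (0.483% in ORF and 0.52% in NC) and DUSP16 (3.15% and 3.45%) were not higher in ORF. In the cytoplasmic class DUSP7 held 5.25% in ORF and 4.7% in NC, while DUSP9 held 6.87% and 8.63%. Shares sum to a whole, so a higher share of 1 gene lowers the others.

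**Figure D3:**
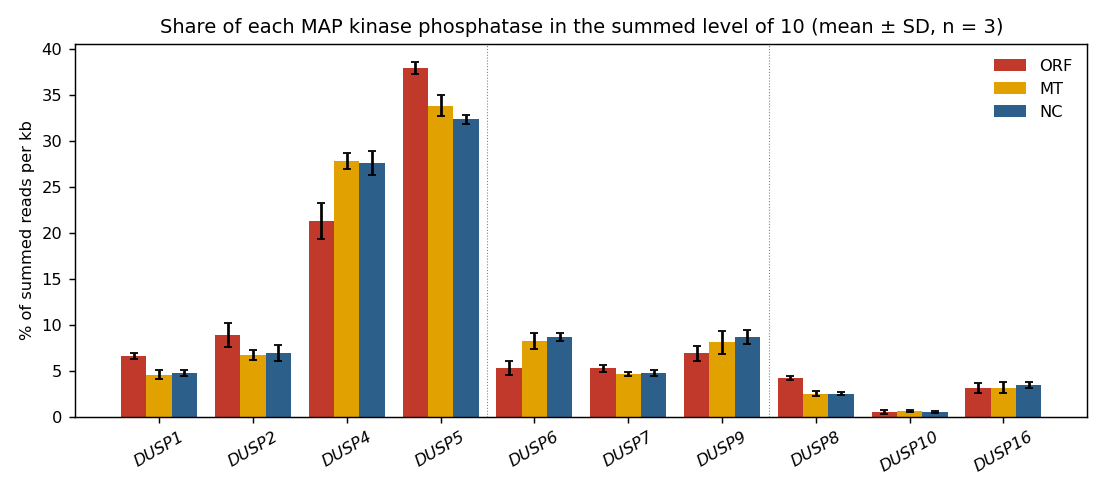
Share of each of 10 MAP kinase phosphatases in their summed reads per kb (vertical axis, percent), as bars of the mean with SD over 3 libraries, for ORF, MT and NC. Dotted lines separate the nuclear inducible, the cytoplasmic ERK-selective and the JNK and p38-selective genes. DUSP5 holds 37.9% in ORF and 32.3% in NC, and DUSP4 holds 21.3% in ORF and 27.6% in NC.

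Around the inhibitors, 92 other genes of the pathway were listed and all were tested. These lists were chosen with earlier results of these data known, so their calls are a description and no independent evidence. In ORF against NC 5 rose, 0 fell and 87 did not pass the limma test at an adjusted p below 0.05. Over all genes tested 0.418% passed it. The median log2 difference was 0.01 beside -0.04 for all genes tested. Among the other MAP kinase phosphatases 1 of 5 rose. It was DUSP8, a phosphatase of JNK and p38, with 749.9, 553.6 and 640.9 normalized reads in ORF against 333.3, 375.6 and 298.1 in NC (log2 difference 0.94 ± 0.16, adjusted p = 0.0286). Of the 2 most abundant in that list, DUSP7 differed by 0.33 ± 0.15 and DUSP9 by -0.16 ± 0.18 (adjusted p = 0.327 and 0.686). Among 10 further dual-specificity phosphatases 1 rose, DUSP14, with 1630, 1158 and 1414 normalized reads in ORF against 764.3, 792.7 and 657.4 in NC (0.91 ± 0.15, adjusted p = 0.0266), while DUSP3 differed by 0.11 ± 0.12 (adjusted p = 0.688). None of the 4 other Sprouty and SPRED genes with NF1 passed, and all 4 had negative values, among them NF1 at -0.15 ± 0.24 and SPRED3 at -0.21 ± 0.21 (limma adjusted p = 0.801 and 0.638).

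Of 14 other ERK output genes 3 rose in ORF against NC and 11 did not pass, where 0.418% of all genes tested passed. This list too was chosen with earlier results known, so nothing about ERK output is read from the count. EGR1, an early-response zinc finger transcription factor, had 3079, 2657 and 3530 normalized reads in ORF against 484.4, 506.1 and 439.8 in NC (log2 difference 2.68 ± 0.14, limma adjusted p = 2.86e-06). FOSL1, an AP-1 subunit, had 5259, 3315 and 5008 in ORF against 2017, 2204 and 1682 in NC (1.18 ± 0.18, adjusted p = 0.0172). HBEGF, a ligand of the EGF receptor, had 503.3, 406.3 and 519.9 in ORF against 193.3, 229.3 and 214.9 in NC (1.15 ± 0.16, adjusted p = 0.00929). For all 5 genes that rose, the lowest of the 3 ORF values exceeded the highest NC value, as for 11.5% of all genes tested. The calls used these same values, so this adds no evidence. The 2 most abundant of the list did not pass: CCND1, the cyclin D1 gene, differed by 0.53 ± 0.13 and PHLDA1 by -0.07 ± 0.12 (adjusted p = 0.106 and 0.79). Of the 14, 8 had positive values and 6 negative ones, so neither these genes nor the 9 inhibitors lay on 1 side.

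The kinase lists held no call in ORF against NC. None of 18 receptors, adaptors and exchange factors passed (median -0.23, with GRB2 at 0.21 ± 0.13 and PTPN11 at -0.18 ± 0.19). None of 13 RAS, RAF, MEK and ERK genes passed (median 0.05, with MAP2K2 at 0.08 ± 0.15). None of 16 JNK and p38 kinases and their activators passed (median -0.16, with MAP2K3 at 0.51 ± 0.16 and MAP2K7 at 0.06 ± 0.14). None of 12 MAPK-activated kinases and decay factors of AU-rich mRNAs passed (median 0.07, with MKNK2 at -0.10 ± 0.16 and ZFP36L1 at 0.09 ± 0.12). Over the 92 genes edgeR also called 5, and 24 had an unadjusted p below 0.05, as did 15.7% of all genes tested. With GC content and length adjusted, 17 were called, 11 higher and 6 lower, beside 8.51% of all genes tested. DESeq2 called 10, 7 higher and 3 lower, beside 1.8% of all genes listed. Without the third ORF library, or without any 1 of the 3 NC libraries, 1 remained, EGR1, while 9 were called without the first ORF library and 16 without the second.

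For MT against NC none of the 92 genes passed, with a median log2 difference of 0.09. There 4 had an unadjusted limma p below 0.05, as did 4.67% of all genes tested, and edgeR called 0. For ORF against MT 2 rose and 90 did not pass, where 0.294% of all genes tested passed. EGR1 had 743.2, 885.1 and 547.7 normalized reads in libraries labelled MT, and its log2 difference in ORF against MT was 2.11 ± 0.19 (limma adjusted p = 0.00111). HBEGF had 222.9, 252.5 and 220.6 there (1.03 ± 0.17, adjusted p = 0.0352). DUSP8, DUSP14 and FOSL1 did not pass in ORF against MT, with adjusted p = 0.121, 0.0739 and 0.0913. HBEGF was not called when the third ORF library or any 1 of the 3 libraries labelled MT was left out, which left 1 call, and 5 and 4 genes were called without the first and the second ORF library.

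**Figure D4:**
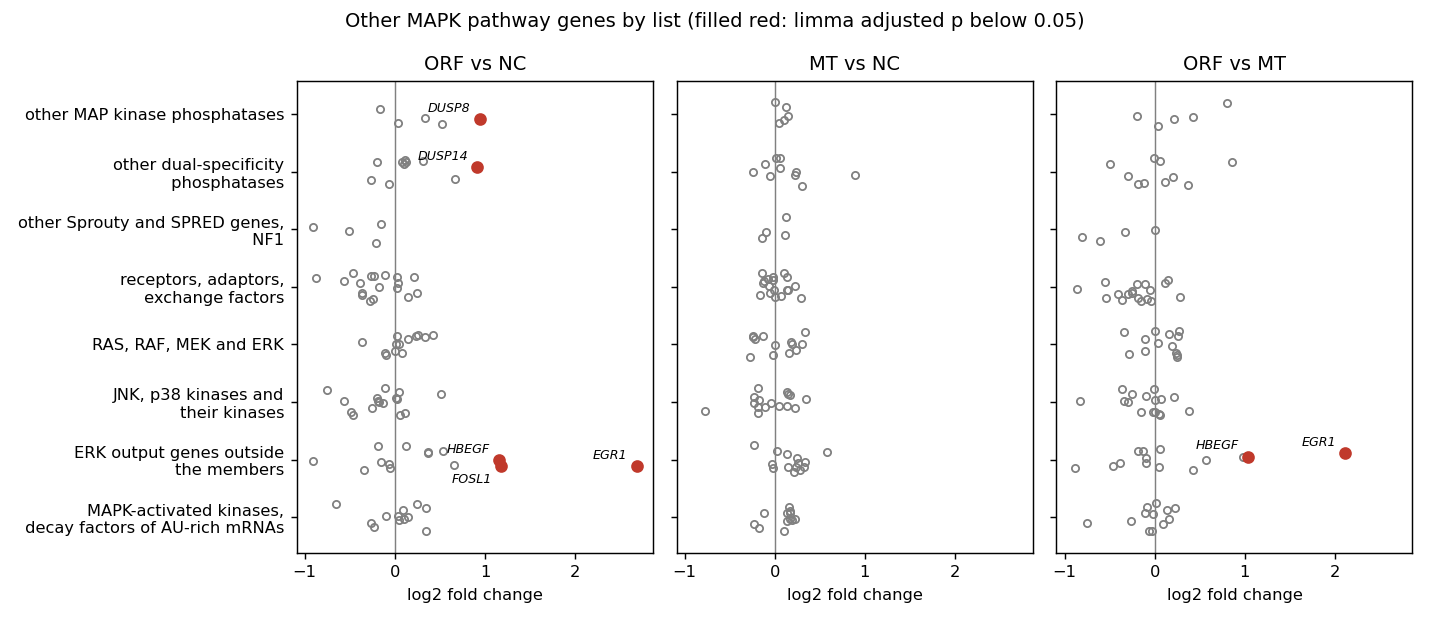
Log2 fold changes (horizontal axis) of 92 pathway genes in 8 lists (rows), 1 point per gene, for ORF against NC, MT against NC and ORF against MT. Filled red points passed limma at an adjusted p below 0.05: DUSP8, DUSP14, HBEGF, FOSL1 and EGR1 in the first panel, none in the second, and HBEGF and EGR1 in the third.

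Splicing is a measure that did not enter the choice of genes by level. The deposited splicing tables held 22 events of the inhibitors in the table of ORF and 21 in that of MT, all skipped exons or mutually exclusive exons, in DUSP5, DUSP6, DUSP10, SPRY4, SPRED1 and SPRED2. The reads of 19 and 16 could be recovered, and 5 and 6 had enough reads and an overall inclusion between 0.05 and 0.95. None passed an adjusted p below 0.05 with an inclusion difference of 0.05 or more by limma on log2 odds, where 0.0205% of 9751 skipped exons and 0% of 9120 mutually exclusive exons did for ORF against NC, and 0.0105% of 9535 and 0% of 8018 did for MT against NC. The 1 event with an unadjusted limma p below 0.05 was in SPRED2, and the share of all events at that threshold is not given here.

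This SPRED2 event is the skipping of exon 3 of 6, a coding exon of 169 bases (chromosome 2, 65334605 to 65334773, minus strand). The exon was included at 0.833, 0.802 and 0.848 in ORF, 0.868, 0.954 and 0.957 in libraries labelled MT and 0.955, 0.878 and 0.943 in NC, where 1 is full inclusion. In this event, with exons 2 and 4 as neighbours, all ORF values were below all others. The skipping junction had 21, 26 and 18 reads in ORF, 17, 4 and 6 in libraries labelled MT and 5, 18 and 6 in NC. The log2 odds difference was -1.42 ± 0.53 for ORF against NC (SE, n = 3, limma adjusted p = 0.57) and 0.08 ± 0.73 for MT against NC (adjusted p = 0.995), so neither passed. The exon length leaves a remainder of 1 when divided by 3, and skipping it would shift the reading frame. A second listed event of this exon, with another upstream neighbour in place of exon 2, overlapped between the groups. Its levels were 0.983, 1.0 and 0.982 in ORF, 1.0, 0.974 and 1.0 in libraries labelled MT and 1.0 in all NC values. The reads of that event could not be recovered, so it was not tested.

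Exon 2 of 3 of DUSP6 (chromosome 12, 89350588 to 89351025, minus strand), a coding exon of 438 bases, was included at 0.924, 0.909 and 0.942 in ORF, 0.99, 0.98 and 0.979 in libraries labelled MT and 0.973, 0.972 and 1.0 in NC. All 3 ORF values were below the others, with 8, 9 and 7 skipping reads beside 384, 353 and 445 inclusion reads. NC had 5, 6 and 0 skipping reads beside 710, 810 and 675 inclusion reads. Its inclusion over both groups exceeded 0.95, so it entered a test only without that limit, where its log2 odds difference was -2.59 ± 0.98 for ORF against NC (limma adjusted p = 0.757) and -0.42 ± 1.03 for MT against NC (adjusted p = 0.982). At 438 bases the exon divides by 3 without remainder.

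Exon 2 of 4 of DUSP5 (chromosome 10, 110502721 to 110502869, plus strand), a coding exon of 149 bases, was included at 0.979, 0.987 and 0.984 in ORF, 1.0, 1.0 and 0.989 in libraries labelled MT and 0.997, 1.0 and 1.0 in NC. The skipping junction to exon 3 had 10, 5 and 6 reads in ORF and 1, 0 and 0 in NC. Without the inclusion limit the log2 odds difference for ORF against NC was -3.03 ± 0.78 (limma adjusted p = 0.593). A second listed event of the same exon, with exon 4 as its other neighbour, had levels of 0.967, 1.0 and 1.0 in ORF against 1.0, 0.99 and 1.0 in NC, which overlapped. In the opposite direction, a 64-base exon of SPRED1 (chromosome 15, 38268174 to 38268237), annotated in 1 transcript, was included at 0.012, 0.051 and 0.012 in ORF against 0 in all 3 NC values, from 1, 4 and 1 inclusion reads in ORF (log2 odds difference 2.38 ± 0.71, limma adjusted p = 0.666). Without the inclusion limit 18 events of the inhibitors were tested for ORF against NC and none passed. At an unadjusted limma p below 0.05 there were 4, 3 of them with lower and 1 with higher inclusion in ORF. The share of all events at that threshold is not given here, so nothing is read from this count.

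**Figure D5:**
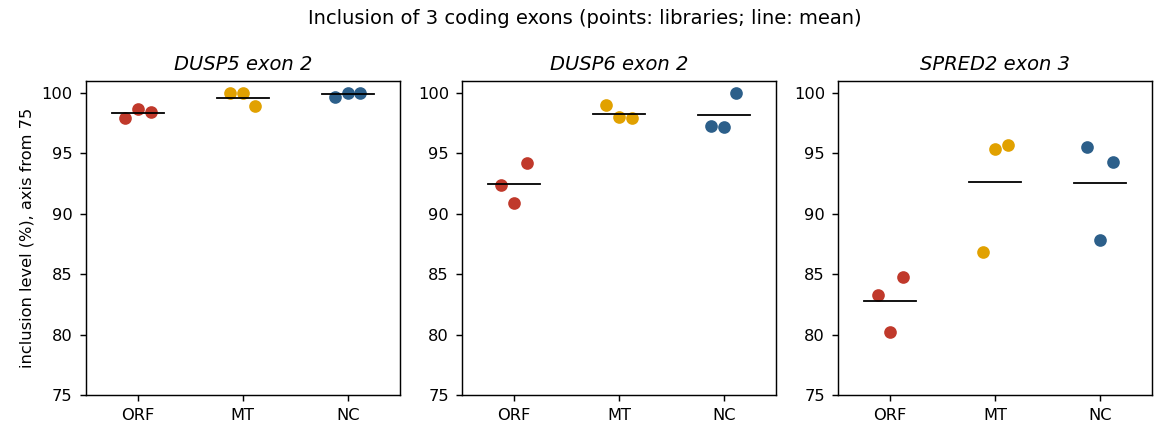
Inclusion level (vertical axis in percent, from 75) of exon 2 of DUSP5, exon 2 of DUSP6 and exon 3 of SPRED2 in ORF, MT and NC, as points for the 3 values of a group with a line at the mean. For DUSP5 the event shown skips to exon 3, and for SPRED2 it is the event with exons 2 and 4 as neighbours. The ORF points are the lowest in each panel, and in SPRED2 they lie at 0.802 to 0.848 as fractions. These 3 exons were singled out after their values were seen, so that position is no evidence. Second events of the DUSP5 and SPRED2 exons, not shown, overlapped between ORF and NC. A SPRED1 exon, also not shown, had higher inclusion in ORF.

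None of the other tested events passed. Exon 2 of DUSP10, whose 854 bases are partly coding, was included at 0.72 ± 0.34 in ORF, 0.928 ± 0.0639 in libraries labelled MT and 0.892 ± 0.096 in NC (mean ± SD, n = 3), on a mean of 36.3, 56.7 and 38.3 reads (limma adjusted p = 0.781 for ORF and 0.972 for MT against NC). The partly coding 51-base exon 2 of SPRY4 was mostly skipped, with an inclusion of 0.0529 ± 0.0341 in ORF, 0.062 ± 0.0279 in libraries labelled MT and 0.0446 ± 0.0126 in NC (adjusted p = 0.974 for MT against NC). DUSP5 exons 2 and 3 are also listed as mutually exclusive. The level of exon 2 in that event was 0.314 ± 0.0209 in ORF, 0.323 ± 0.0351 in libraries labelled MT and 0.317 ± 0.0235 in NC (limma adjusted p = 0.99 and 0.998). As skipped exons both were nearly always included, exon 2 at means of 0.983 in ORF and 0.999 in NC and exon 3 at 0.988 and 0.993. The level of the listed event is thus not read as a choice between the exons.

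For each inhibitor the 2 genes most like it over the 9 libraries were sought among 12389 genes with a mean of 50 or more reads, by the root mean square difference of log2 values centred on each gene's mean. CRCP and REXO4 were nearest to DUSP1, at 0.0503 and 0.0553, where the median gene was at 0.36. For DUSP4 they were TIMP2 and B4GALNT3, at 0.0413 and 0.0429 with a median of 0.266. POLR2A, the largest subunit of RNA polymerase II, and PISD were nearest to DUSP5, at 0.0284 and 0.0324 with a median of 0.267. IGF1R, the receptor of insulin-like growth factor 1, and RBM20 were nearest to DUSP6, at 0.0659 and 0.0696 with a median of 0.348. IGF1R averaged 558.4 normalized reads in ORF, 815.3 in libraries labelled MT and 830.9 in NC. HCN3 and LTB4R were nearest to SPRY4, at 0.0642 and 0.0728, and LINC02210 and R3HDM2 to SPRY2, at 0.0697 and 0.0848. SPAG9 and SLC30A6 were nearest to SPRED1, at 0.0361 and 0.0371, and PDIA6 and ADAR to SPRED2, at 0.0238 and 0.0261. The nearest to DUSP10, ARMC2 and APH1B, were farther away, at 0.157 and 0.2. The 9 inhibitors were left out of the genes searched, so likeness between them was not examined here. The points share library, depth and GC trend, and no shared function is read from the likeness.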

How the data were processed

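RNA of 9 HCT-116 libraries, 3 per group, was extracted with Trizol and sequenced on Illumina instruments, per the labels' protocols. The submitters' processing notes name GRCh38 and hg38, and no source used here gives the aligner, the counter or the strand setting. For ORF and for MT the authors deposited 1 gene table each, with the same NC libraries, that gives normalized signal. Dividing a column by its smallest step gave whole reads (100% of values within 0.1 of a whole number). Gene lengths equal those of GENCODE 29. Splicing tables deposited by the authors are in other units, namely reads of either form and inclusion levels, and some cells had lost the commas between libraries. Commas were lost in 44791 of 95054 events for ORF and 41463 of 88104 for MT. Reads, split where needed, that matched the deposited levels within 0.001 were had for 79.78% of all events for ORF and 80.63% for MT. For skipped exons alone the shares were 74.39% and 75.56%.

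The test was limma 3.58.1 (R 4.3.3, trend) on log2(value + 1), for genes that reached 1 in 3 or more libraries, with Benjamini-Hochberg adjustment over all genes. ORF with MT used size factors over all 9 libraries. This scale understates differences of genes with few reads. Splicing was tested on log2 odds with 0.5 added, at a mean of 20 reads per group. Limma was checked on simulated data. Alternatives were edgeR 4.0.16, DESeq2 1.42.0 and others named in the closing section. Genes named are all 9 inhibitors, every pathway gene called, the 2 most abundant of each list (1 is not reported here) and the 2 nearest patterns. The inhibitors and lists were chosen with earlier results of these data known, and the 3 phosphatase classes, the ratios and the exons singled out after their values were seen.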

Additional observations from a re-analysis of the deposited data

How the results depend on the processing

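Each difference was recomputed under 15 alternatives. For ORF against NC 7 of the 9 inhibitors kept their sign under all 15. The exceptions were DUSP10, with the other sign under 6 (-0.35 to 0.16), and SPRED1 under 2 (-0.22 to 0.15). For MT against NC DUSP1, SPRED2 and SPRY2 had the other sign under 1, 1 and 2 alternatives, and for ORF against MT SPRED1 under 2. The count of all genes called depended on the setting. For ORF against NC it was 103 (93 higher and 10 lower), 210 with quantile normalization, 558 with DESeq2 (388 higher and 170 lower), 232 with 9 libraries in 1 fit (176 and 56), 2099 with GC content and length adjusted (1371 and 728) and 24 to 1494 with 1 library left out. For MT against NC it was 0 (1183 at an unadjusted p below 0.05, edgeR 0), and 1 with DESeq2. For ORF against MT it was 72, 123 with quantile normalization, 428 with DESeq2, 480 with 9 libraries in 1 fit, 1898 with the GC adjustment and 12 to 544 with 1 library left out. Of the 92 pathway genes, 5 were called for ORF against NC, 10 with DESeq2, 17 with the GC adjustment and 1 to 16 with 1 library left out. For ORF against MT 2 were called, 4 with quantile normalization, 8 with DESeq2, 8 with 9 libraries in 1 fit, 14 with the GC adjustment and 1 to 5 with 1 library left out. The cause was not tested. To check for pairs, the deviation of each gene's log2 value from its group mean was taken in each library. Across genes, these deviations correlated between same-numbered libraries at -0.335 to 0.136 for ORF and NC and -0.118 to 0.319 for MT and NC. For ORF and MT the range was -0.494 to 0.183, so the numbers were not taken as pairs. A replicate block gave 301 genes for ORF against NC, 35 for MT against NC and 35 for ORF against MT, and among pathway genes 1 for MT against NC and 1 for ORF against MT. For splicing, no event of the inhibitors was called under any alternative run. No paired analysis was possible because the splicing values carry no library numbers. DUSP10 is limited by depth, with 123 to 191 reads per group.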
